A study of Mus musculus with 4 samples.

Results

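The 10 genes described here belong to the integrated stress response. They were taken by name, with earlier results of these data known, from the 24411 genes listed for late two-cell mouse embryos. They are the 4 kinase genes Eif2ak1, Eif2ak2, Eif2ak3 and Eif2ak4, the transcription factor genes Atf4 and Ddit3, the target genes Trib3 and Asns, and the phosphatase subunit genes Ppp1r15a and Ppp1r15b. In this response, each kinase senses a different stress and phosphorylates the alpha subunit of eIF2, the factor that brings the initiator tRNA to the ribosome. Phosphorylated eIF2 blocks its own exchange factor, eIF2B, so that most translation slows, while a few mRNAs with short upstream reading frames, among them Atf4, are translated more. ATF4 then activates genes of amino acid supply and of stress outcome, and a phosphatase built on either PPP1R15 subunit reverses the phosphorylation. The response is driven largely at the level of phosphorylation and translation, neither of which was measured here.

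All libraries were made from embryos of the ICR strain produced by in vitro fertilization and cultured in KSOM medium. Of 4 libraries, 2 came from embryos kept with DMSO, the solvent, and 2 from embryos kept with 6 µM 10074-G5, a small molecule that prevents MYC from pairing with MAX. Each library pooled 10 embryos collected at 36 h post-insemination (hpi), and the labels put the start of the treatment at 3 hpi, the series design at 6 hpi. The comparison asks how the mRNA of the late two-cell embryo differs when MYC is inhibited. In pooled embryos, a difference in the number of embryos that express a gene and a difference in mRNA per embryo cannot be told apart.

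DMSO replicate 1 stood apart from the other libraries. Its log2 CPM (counts scaled to the normalized library size) over genes had a Pearson's r of 0.825 to 0.887 with the other libraries, which among themselves had 0.912 to 0.931; genes are no replicates. DMSO replicate 2 had 0.912 and 0.926 with treated replicates 1 and 2, and 0.887 with DMSO replicate 1. Which of the DMSO libraries is the more typical control cannot be told from these values. The log2 fold change of each named gene but Eif2ak2, and the median of each list, are also given without DMSO replicate 1. The control group is then 1 library, whose spread is taken from the treated pair and the fit over all genes. For the lists, values without DMSO replicate 2 are not given. Summed over 8 oocyte markers, FPKM (fragments scaled to transcript length and library size) was 879 and 2124 in DMSO replicates 1 and 2, and 4444 and 3644 in inhibitor-treated replicates 1 and 2. Summed over 8 two-cell markers it was 1470 and 1770 in DMSO and 2381 and 2086 in treated embryos, and over 7 sperm markers 2.7 and 4.44 in DMSO and 16.1 and 9.43 in treated embryos. All 3 sums thus had the same order of libraries. The two-cell and oocyte markers were all detected, while the sperm markers Prm1, Tnp2 and Smcp were at 0. The sum of 10 cumulus and granulosa cell markers lay between 7.47 and 22.2 FPKM, with Ptx3, Inha and Foxl2 at 0. The part of these cells or of retained oocyte transcripts in the results was not tested. The depth was similar in all libraries, with totals of 18206584 to 20718690 estimated counts.

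The 10 genes spanned a wide range of mRNA levels. In DMSO embryos the order by mean FPKM was Atf4, Ddit3, Ppp1r15a, Ppp1r15b, Eif2ak1, Trib3, Eif2ak3, Eif2ak4, Asns and Eif2ak2. The ranges of the replicates overlapped between the neighbours Atf4 and Ddit3, Ddit3 and Ppp1r15a, and Eif2ak1 and Trib3, and did not overlap for the other neighbours. In inhibitor-treated embryos, Ddit3 came before Atf4, Trib3 before Eif2ak1 and Eif2ak4 before Eif2ak3. There the ranges overlapped only between Asns and Eif2ak2, the lowest pair. Ddit3 ranked between 554 and 1289 among the 24411 listed genes in the 4 libraries, Atf4 between 933 and 1347 and Ppp1r15a between 1154 and 2215, whereas Asns ranked between 8138 and 12616.

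**Figure D1:**
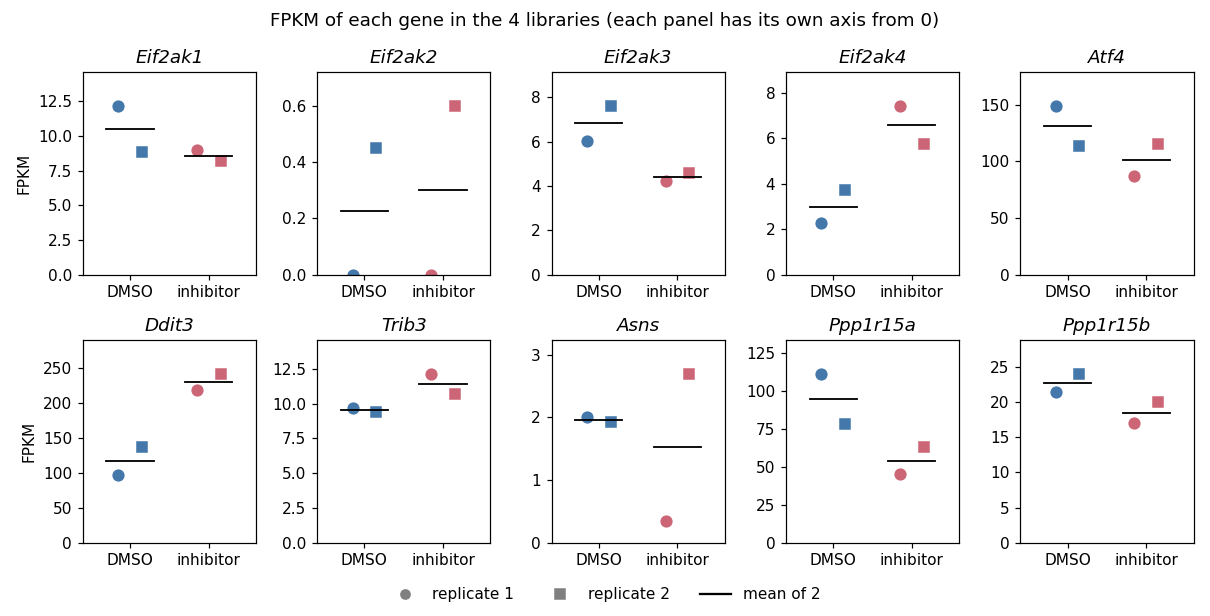
FPKM of the 10 genes in each library, with circles for replicate 1, squares for replicate 2 and a line at the mean of 2 libraries; every panel has its own linear axis from 0. Ddit3 and Eif2ak4 were higher in both inhibitor-treated libraries than in both DMSO libraries, as was Trib3 by a small margin, Eif2ak3, Ppp1r15a and Ppp1r15b were lower, and Eif2ak2 was at 0 in replicate 1 of each group.

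Ddit3 and Eif2ak4 were higher, and Eif2ak3, Atf4, Ppp1r15a and Ppp1r15b lower, in both inhibitor-treated libraries than in either DMSO library on the CPM scale. None of these differences passed the threshold of an adjusted p under 0.05 with a log2 fold change (log2FC, inhibitor over DMSO) beyond 1 in either direction. All 10 genes passed the filter on low counts. With edgeR (quasi-likelihood fit, Benjamini-Hochberg adjustment over 13549 genes), 0 of the 10 were called, as were 0 of all tested genes (0%), where the smallest adjusted p was 0.333. DESeq2 with transcript lengths also called 0 of the 10, against 2.81% of the 18208 genes with at least 1 count. An unadjusted edgeR p under 0.05 was found for 2 of the 10, Ddit3 and Ppp1r15a, beside 14.9% of all tested genes. The groups did not overlap for 2 genes that were higher in treated embryos and 4 that were lower, where 28.9% and 28.3% of all tested genes were so separated. The median log2FC of the 10 genes was -0.45, beside 0.04 over all tested genes. For a single gene, the smallest two-sided p of an exact permutation test with 2 libraries a group is 0.333.

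Without DMSO replicate 1, the median log2FC of the 10 genes was -0.26, and the genes with an unadjusted p under 0.05 were Ddit3 and Eif2ak3, beside 13.9% of all tested genes. Without DMSO replicate 2, which leaves the distant library as the only control, Eif2ak4 and Ppp1r15a were called, as were 30.8% of all tested genes.

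**Figure D2:**
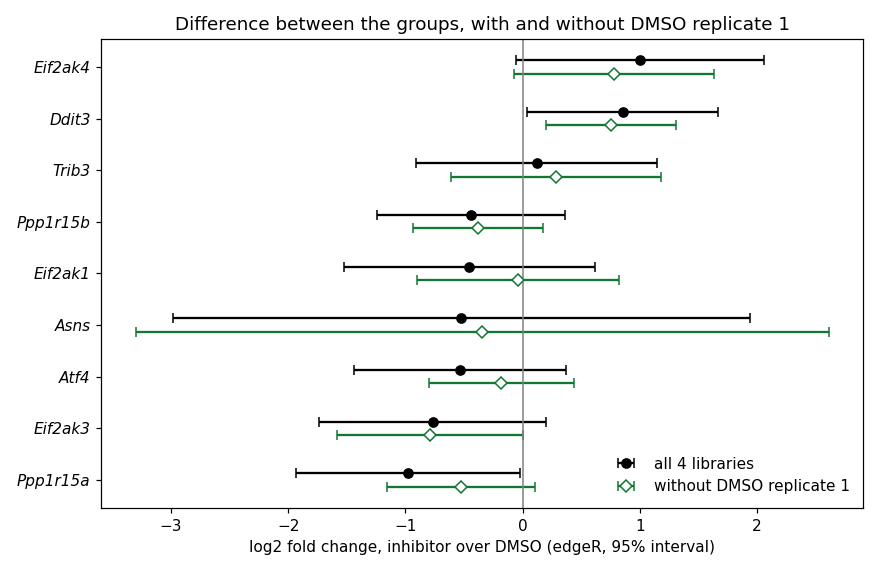
The log2FC of 9 of the genes by edgeR with its 95% interval, over all 4 libraries (filled circles) and without DMSO replicate 1 (open diamonds); Eif2ak2 is left out because its interval runs from -5.17 to 5.94. The interval of Ddit3 lies above 0 in both fits, that of Ppp1r15a lies below 0 only over all 4 libraries, and that of Eif2ak3 only without DMSO replicate 1.

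Among the kinases, Eif2ak4 was the gene with the higher level in treated embryos and Eif2ak3 the one with the lower level. Eif2ak4 encodes GCN2, the kinase that is activated by uncharged tRNA when amino acids run short, and spans positions 118388583 to 118475234 of chromosome 2 (GRCm38.p6, as for all positions given here). Its level was 2.27 and 3.73 FPKM in DMSO replicates 1 and 2, and 7.44 and 5.75 FPKM in inhibitor-treated replicates 1 and 2. Both treated libraries were above both DMSO libraries, and the 4 libraries had the same order as for the summed oocyte, two-cell and sperm markers. Ddit3, also higher in both treated libraries, did not have this order. How many of all tested genes had it was not counted. The log2FC was 1.0 (standard error 0.46, 95% interval -0.06 to 2.06, adjusted p = 0.347 by edgeR), a fold of 2.0. Leaving out DMSO replicate 1 gave 0.78, and leaving out DMSO replicate 2 gave 1.28 (adjusted p = 0.0386 by edgeR), with adjusted p-values between 0.0386 and 0.992 over all alternatives.

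Eif2ak3 encodes PERK, the kinase in the membrane of the endoplasmic reticulum (ER) that responds to unfolded proteins, and lies on chromosome 6 from 70844484 to 70905241. It had 6.04 and 7.63 FPKM in DMSO embryos and 4.21 and 4.60 FPKM in treated embryos. The groups did not overlap, and the replicates were close, with log2 CPM ratios of replicate 1 over replicate 2 of -0.09 in DMSO and -0.10 in treated embryos. The log2FC of -0.77 (standard error 0.42, 95% interval -1.74 to 0.20, adjusted p = 0.398 by edgeR) depended little on any single library and stayed within -0.82 and -0.67 when any 1 library was dropped. Of the 10 genes, Eif2ak3 and Ddit3 were the ones that had an unadjusted p under 0.05 without DMSO replicate 1, with a p of 0.0498 for Eif2ak3 by edgeR, where the only replicate pair is the treated one.

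Eif2ak1 encodes HRI, the kinase known from red blood cell precursors lacking heme and from mitochondrial stress, and lies on chromosome 5 from 143817792 to 143902717. It was the highest kinase in every library, with 12.2 and 8.80 FPKM in DMSO and 8.97 and 8.17 FPKM in treated embryos. The groups overlapped, and only DMSO replicate 1 stood above the rest. Its log2FC was -0.45 over all libraries (adjusted p = 0.636 by edgeR) and -0.04 without DMSO replicate 1, with a 95% interval from -0.90 to 0.83. Its span shares 14 bases with Aimp2, a gene at 150 to 321 FPKM, and 4431 bases with Ankrd61, which had at most 0.13 FPKM.

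Eif2ak2 encodes PKR, the kinase that binds double-stranded RNA and is induced by interferon, and lies on chromosome 17 from 78850504 to 78882572. It had 0 counts in replicate 1 of both groups, which allows up to 3 counts (0.0387 and 0.0357 FPKM in the DMSO and the treated library), and 33 counts in DMSO replicate 2 and 48 in treated replicate 2 (0.45 and 0.60 FPKM). The replicates of a group thus differed far more than the groups did. PCR copies were not collapsed into molecules, so these limits cover counting error only. The fitted log2FC of Eif2ak2 enters the median of the genes described here and the figure of the lists, but is not read as a result. The span shares 2041 bases with the transcribed pseudogene Gm6548 and 689 with Gm26637, for which no level is listed. Gm6548 had 0.09 and 0 FPKM in DMSO replicates 1 and 2, and 0.03 and 0 FPKM in treated replicates 1 and 2. It was thus above 0 only in the libraries where Eif2ak2 was at 0. The limits do not cover Eif2ak2 reads counted for an overlapping gene, and whether there were any was not tested.

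In FPKM, the kinase genes together gave nearly the same level in all libraries, while their shares differed. FPKM does not use the normalization factors behind CPM, which were 0.873 for DMSO replicate 1 and 1.04 to 1.06 for the other libraries. With these factors, the sum of DMSO replicate 1 would stand higher against the other libraries. Their summed FPKM was 20.5 and 20.6 in DMSO replicates 1 and 2 and 20.6 and 19.1 in treated replicates 1 and 2. Eif2ak4 made up 11.1% and 18.1% of this sum in DMSO embryos and 36.1% and 30.1% in treated embryos. Eif2ak3 made up 29.5% and 37.0% in DMSO embryos and 20.4% and 24.1% in treated embryos. The groups did not overlap for either share. Eif2ak1 made up 59.4% in DMSO replicate 1 and between 42.7% and 43.5% in the other libraries. Expressed as a ratio of FPKM, Eif2ak4 stood at 0.187 and 0.424 of Eif2ak1 in DMSO embryos and at 0.829 and 0.704 in treated embryos. These sums, shares and ratios were chosen after the values were seen and were not tested.

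**Figure D3:**
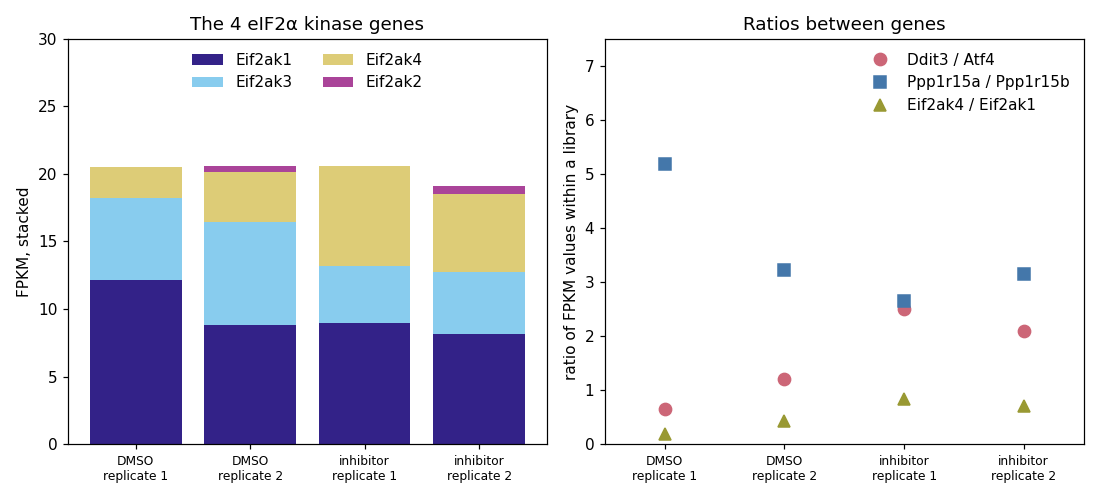
Left, FPKM of the 4 kinase genes stacked by library, on a linear axis from 0; right, ratios of FPKM between genes of the same library. In FPKM, which does not use the normalization factors behind CPM, the stacks are of similar height (19.1 to 20.6 FPKM). The Eif2ak4 part is larger in the treated libraries, and the Ddit3 to Atf4 ratio is 0.646 and 1.21 in DMSO against 2.51 and 2.09 in treated embryos. Sums and ratios were not tested.

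Of the transcription factor genes, Ddit3 was higher in both treated libraries, and the Atf4 groups overlapped in FPKM. Ddit3 encodes CHOP, a bZIP factor known for its part in cell death under lasting ER stress and itself an ATF4 target, and lies on chromosome 10 from 127290793 to 127296291. It had 96.3 and 137 FPKM in DMSO embryos and 219 and 242 FPKM in treated embryos. Both treated libraries were above both DMSO libraries, and the replicates lay closer together than the groups, with log2 CPM ratios of replicate 1 over replicate 2 of -0.24 in DMSO and -0.10 in treated embryos. In CPM, Ddit3 was 70.5 ± 8.30 (SD, n = 2) in DMSO and 127 ± 6.39 (SD, n = 2) in treated embryos. The log2FC was 0.85 (standard error 0.35, 95% interval 0.03 to 1.67, adjusted p = 0.334 by edgeR), a fold of 1.81, and 0.86 by DESeq2 with transcript lengths (adjusted p = 0.164). It was 0.75 without DMSO replicate 1, and dropping any 1 library left it within 0.75 and 0.98. It lay between 0.75 and 1.0 over all alternatives. With all 4 libraries kept, its adjusted p lay between 0.16 (DESeq2 on the genes edgeR tested) and 0.508 (edgeR with the replicate block). The span of Ddit3 shares 77 bases with Mbd6 and 71 with the gene listed as Mars, which stayed between 0.57 and 2.32 FPKM in all libraries.

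Atf4, the bZIP factor at the centre of the response, lies on chromosome 15 from 80255184 to 80257545. It had 149 and 114 FPKM in DMSO embryos and 87.2 and 116 FPKM in treated embryos. The groups overlapped in FPKM, and in CPM they were separated only narrowly, with 135 in DMSO replicate 2 and 134 in treated replicate 2. Its log2FC was -0.54 (standard error 0.39, 95% interval -1.44 to 0.37, adjusted p = 0.501 by edgeR) and -0.18 without DMSO replicate 1. The difference between the groups was smaller than that between the DMSO replicates, whose log2 CPM ratio was 0.61.

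Within a library, Ddit3 stood at 0.646 and 1.21 times the FPKM of Atf4 in DMSO replicates 1 and 2, and at 2.51 and 2.09 times in treated replicates 1 and 2. The groups did not overlap. In CPM this had to be so, because Ddit3 was higher and Atf4 lower in both treated libraries, and the ratio adds no separate result. The ratio too had the order of libraries of the summed oocyte, two-cell and sperm markers, and was not tested. Among the 105 tested genes of the pathway lists described further on, the 3 whose pattern over the 4 libraries was closest to Atf4 were Denr, Eif2b1 and Iars. Their root mean square distances from Atf4 in centred log2 CPM were 0.08, 0.09 and 0.14, beside 0.52 for the median gene of the lists. Picked as the closest, they had to lie below that median, and genes outside the lists were not compared.

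Neither target gene was separated between the groups on the CPM scale. Trib3 encodes a pseudokinase that binds ATF4 and CHOP and restrains them, and lies on chromosome 2 from 152337425 to 152344060. It had 9.67 and 9.37 FPKM in DMSO embryos and 12.2 and 10.7 FPKM in treated embryos. The groups were apart in FPKM but overlapped in CPM, and the log2FC was 0.12 (standard error 0.44, 95% interval -0.91 to 1.15, adjusted p = 0.911 by edgeR), and 0.29 without DMSO replicate 1. Relative to Ddit3, Trib3 stood at 0.10 and 0.0684 of its FPKM in DMSO and at 0.0556 and 0.0442 in treated embryos.

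Asns, the asparagine synthetase gene, is a textbook target of ATF4 under amino acid shortage and lies on chromosome 6 from 7675165 to 7693209. It had 63 and 58 counts in DMSO embryos, and 12 and 88 counts in treated embryos. The treated libraries lay on either side of the DMSO libraries, at 0.35 and 2.7 FPKM against 2.0 and 1.93 FPKM. Its log2FC was -0.52 (standard error 1.05, 95% interval -2.99 to 1.94, adjusted p = 0.83 by edgeR) over all libraries, -0.34 without DMSO replicate 1 and 0.34 without treated replicate 1, so that even its direction rested on 1 library. A difference within this interval was not detectable at these counts.

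The promoters of these genes show where ATF family sites lie beside the start. Promoter sequences of RefSeq on GRCm38.p6, running from 250 bases before to 50 after the start, were found for 9 of the 10 genes (10 promoters, Eif2ak4 having 2). Ppp1r15b had no promoter entry and was not searched. The core of the C/EBP-ATF response element, searched as TGATGNAA on both strands, was found in 2 of the 10, those of Asns and Trib3, and in 3.97% of all 32851 promoters. The cAMP response element TGACGTCA, a palindrome bound by ATF and CREB factors and added to the search after the sequences were seen, was found in the promoter of Ppp1r15a and in 1.79% of all promoters. The E-box CACGTG, the palindrome that MYC and MAX bind, was found in 0 of these 10 promoters and in 7.15% of all promoters. These matches describe letters in a short window and not bound sites. The stretches that hold the matches are given 5′ to 3′ on the minus strand, which is the strand of each of these genes, with the matched letters in capitals. That of Asns (chr6:7693210-7693269) holds the 60 bases before the start with the match from base -23 to -16, that of Ppp1r15a (chr7:45526269-45526328) the 60 bases before the start with the match from -12 to -5, and that of Trib3 (chr2:152344027-152344056) the bases from 5 to 34 after the start, with the reverse complement of the motif from base 15 to 22.
Asns: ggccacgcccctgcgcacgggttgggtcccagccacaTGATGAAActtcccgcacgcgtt
Ppp1r15a: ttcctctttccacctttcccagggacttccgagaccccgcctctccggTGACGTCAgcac
Trib3: tagctcaggtTTACATCAgccgggcgggga

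The genes with these matches did not share a direction. Ppp1r15a was lower in both treated libraries than in the DMSO libraries, Trib3 differed little, and the Asns libraries of the treated group fell on both sides of the control.

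Both phosphatase subunit genes were lower in treated embryos. Ppp1r15a encodes GADD34, the subunit induced by the response itself that brings protein phosphatase 1 (PP1) to eIF2, and lies on chromosome 7 from 45522917 to 45526268. It had 111 and 77.8 FPKM in DMSO embryos and 45.1 and 62.8 FPKM in treated embryos. The groups did not overlap, and the order of the 4 libraries was the reverse of that of the summed oocyte, two-cell and sperm markers. In CPM, Ppp1r15a was 208 ± 76.3 (SD, n = 2) in DMSO and 106 ± 23.1 (SD, n = 2) in treated embryos. The corresponding log2FC was -0.98 (standard error 0.41, 95% interval -1.93 to -0.02, adjusted p = 0.334 by edgeR). DMSO replicate 1 carried much of it. The log2FC was -0.53 without that library and -1.31 without DMSO replicate 2 (adjusted p = 0.0066 by edgeR), and the adjusted p lay between 0.0066 and 0.992 over all alternatives. The span shares 730 bases with Tulp2, which had 2.04 to 5.97 FPKM.

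Ppp1r15b encodes CReP, the subunit that keeps eIF2 dephosphorylated in unstressed cells, and lies on chromosome 1 from 133131166 to 133139800. It had 21.5 and 24.1 FPKM in DMSO embryos and 17.1 and 20.0 FPKM in treated embryos. The groups did not overlap, and the log2FC was -0.44 (standard error 0.35, 95% interval -1.24 to 0.36, adjusted p = 0.536 by edgeR) and -0.38 without DMSO replicate 1. Within a library, Ppp1r15a stood at 5.18 and 3.23 times the FPKM of Ppp1r15b in DMSO and at 2.64 and 3.14 times in treated embryos, where DMSO replicate 2 and treated replicate 2 were close.

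The other genes of the pathway were described from 7 lists, by their counts and medians. Over all tested genes, 6576 of 13549 were lower in treated embryos. The eIF2 and eIF2B list, which holds the substrate of the kinases, its exchange factor, the factors that work with them and the catalytic PP1 subunits, had 15 of 18 genes lower in treated embryos and a median log2FC of -0.79. Of these genes, 6 had an unadjusted edgeR p under 0.05, all lower. Of all 13549 tested genes, 1374 had such a p and were lower. In this list, 14 genes were lower without overlap of the groups (28.3% of all tested genes). Without DMSO replicate 1, the median was -0.38. Eif2s1, the gene of the phosphorylated alpha subunit, had 523 and 443 FPKM in DMSO and 209 and 279 FPKM in treated embryos (log2FC -1.14, adjusted p = 0.333 by edgeR, and -0.86 without DMSO replicate 1). Eif2s2, the beta subunit gene, had a log2FC of -1.17 (adjusted p = 0.334) and Denr, which acts in reinitiation, one of -0.59 (adjusted p = 0.46), which without DMSO replicate 1 were -0.39 and -0.26. DESeq2 with transcript lengths called 3 genes of this list, all down-regulated, beside 429 called lower of the 18208 genes with at least 1 count. Eif5, whose product makes eIF2 hydrolyse its GTP, had 815 and 384 FPKM in DMSO and 207 and 247 FPKM in treated embryos (DESeq2 log2FC -1.61, adjusted p = 0.0309). Eif2b3, the gamma subunit gene of eIF2B, had 87.6 and 37.5 FPKM in DMSO and 14.2 and 19.5 FPKM in treated embryos (DESeq2 log2FC -2.10, adjusted p = 0.0114). Mcts1, the partner of Denr, had 137 and 94.3 FPKM in DMSO and 35.7 and 41.0 FPKM in treated embryos (DESeq2 log2FC -1.77, adjusted p = 0.0155). The edgeR adjusted p of these 3 genes was 0.333, and their edgeR log2FC without DMSO replicate 1 was -0.76 for Eif5, -1.13 for Eif2b3 and -1.29 for Mcts1.

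The list of tRNA synthetase targets of ATF4 had 11 of 13 genes lower in treated embryos, with a median log2FC of -0.67 over all libraries and -0.45 without DMSO replicate 1. An unadjusted edgeR p under 0.05 was found for 3 of them, all lower. Of all 13549 tested genes, 1374 had such a p and were lower. DESeq2 called 0. Among its 4 highest genes, the log2FC was -0.85 for Nars, -0.30 for Iars, -0.95 for Eprs and -0.67 for Tars, with edgeR adjusted p-values from 0.333 to 0.694. In the same order, the log2FC without DMSO replicate 1 was -0.45, -0.10, -0.66 and -0.66. The ATF4 targets of amino acid synthesis and transport were split, with 10 higher and 11 lower of 21 tested, a median log2FC of -0.15, and 0.03 without DMSO replicate 1. Psat1, an enzyme of serine synthesis, had 300 and 175 FPKM in DMSO and 117 and 125 FPKM in treated embryos (log2FC -1.15, adjusted p = 0.333 by edgeR, and -0.53 without DMSO replicate 1). Mthfd2, the mitochondrial folate enzyme, had 39.8 and 97.3 FPKM in DMSO and 156 and 139 FPKM in treated embryos (log2FC 1.02, adjusted p = 0.337 by edgeR, and 0.60 without that library). Cth and Got1 had a log2FC of -0.86 and -1.14 (adjusted p = 0.419 and 0.343 by edgeR), which rested largely on DMSO replicate 1 and were 0.03 and -0.26 without it. Phgdh, the entry enzyme of serine synthesis, was the gene of this list that DESeq2 called, beside 2.81% of genes with at least 1 count. It had 30.6 and 9.88 FPKM in DMSO and 5.77 and 5.93 FPKM in treated embryos (DESeq2 log2FC -2.02, adjusted p = 0.0384), and its edgeR log2FC was -0.75 without DMSO replicate 1.

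Of the other ATF4 or CHOP targets, 14 of 17 were tested, with 8 higher and 6 lower, a median log2FC of 0.25, and 0.07 without DMSO replicate 1. Map1lc3b, an autophagosome protein gene, was the one that DESeq2 called, beside 2.81% of genes with at least 1 count. It had 3835 and 1682 FPKM in DMSO and 988 and 1152 FPKM in treated embryos (DESeq2 log2FC -1.58, adjusted p = 0.0375), and its edgeR log2FC was -0.65 without DMSO replicate 1. Nupr1, Eif4ebp1 and Pmaip1 had a log2FC of -0.28, 0.55 and 0.18 (adjusted p = 0.86, 0.476 and 0.908 by edgeR). Without DMSO replicate 1 these were 1.11, 0.43 and -0.51, so that Nupr1 and Pmaip1 turned. The bZIP partners and ATF4 ligase subunits had 6 higher and 4 lower of 10 tested, with a median log2FC of 0.42, and 0.49 without DMSO replicate 1. Among its 4 highest genes, Cebpg and Nfe2l2 were higher in both treated libraries (log2FC 0.56 and 0.77), Btrc was lower in both (log2FC -1.70) and Fbxw11 overlapped (log2FC -0.14), with edgeR adjusted p-values from 0.333 to 0.869. Without DMSO replicate 1 the log2FC was 0.39 for Cebpg, 0.67 for Nfe2l2, -0.88 for Btrc and -0.27 for Fbxw11.

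The genes that restrain or activate the kinases had 3 higher and 4 lower of 7 tested, with a median log2FC of -0.18, and -0.16 without DMSO replicate 1. Dnajc3, an inhibitor of PERK and PKR that is itself induced by ER stress, had 21.8 and 19.6 FPKM in DMSO and 8.60 and 12.0 FPKM in treated embryos (log2FC -1.16, adjusted p = 0.333 by edgeR, and -0.93 without DMSO replicate 1). Nck1, Impact and Tarbp2 had a log2FC of -0.74, -0.55 and 0.12 (adjusted p = 0.402, 0.492 and 0.929 by edgeR), and of -0.40, -0.42 and -0.08 without DMSO replicate 1. The genes of the other ER stress pathways, controlled by IRE1, XBP1 and ATF6, had 13 higher and 9 lower of 22 tested and a median log2FC of 0.16. An unadjusted edgeR p under 0.05 was found for 0 of them, beside 14.9% of all tested genes. DESeq2 called 0 of them, beside 2.81% of genes with at least 1 count. Without DMSO replicate 1 the median was -0.02. Hspa5, the main ER chaperone, had 115 and 83.3 FPKM in DMSO and 69.9 and 57.4 FPKM in treated embryos (log2FC -0.80, adjusted p = 0.367 by edgeR, and -0.38 without DMSO replicate 1). Dnajb9, Pdia3 and Manf had a log2FC of -1.01, -0.73 and 0.01 (adjusted p = 0.343, 0.365 and 0.989 by edgeR), and of -0.41, -0.54 and -0.0032 without DMSO replicate 1.

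**Figure D4:**
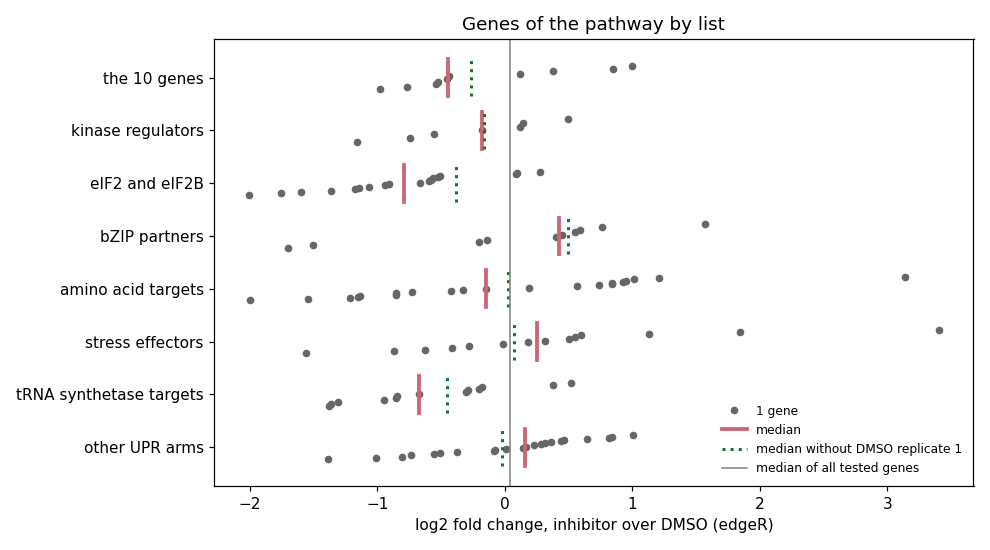
The log2FC by edgeR of each tested gene of the 10 described here and of the 7 lists, with the list's median over all libraries (solid bar), its median without DMSO replicate 1 (dotted bar) and the median of all tested genes (grey line, 0.04). The eIF2 and eIF2B list and the tRNA synthetase list lie mostly to the left of 0, at medians of -0.79 and -0.67, and their medians without DMSO replicate 1 are nearer to 0.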

How the data were processed

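The authors sequenced polyA libraries made with a SMART-Seq v4 PLUS kit and mapped the read pairs to mm10. Per the labels and methods, STAR (version 2.7.10) was used, uniquely mapped reads were kept, and RSEM (version 1.3.3) gave, for each gene and library, an expected count, TPM, FPKM and an effective length, as deposited. TPM was only checked for its unit. From 3.97% to 4.49% of the expected counts were not whole and all were rounded. Genes were filtered with filterByExpr (minimum count 10, total 15), scaled with TMM factors (0.873 to 1.06) and tested with edgeR 4.0.16 in R 4.3.3, two-sided, over 13549 genes. Standard errors and intervals were derived from the quasi-likelihood F statistic. Alternatives used DESeq2 1.42.0 or limma 3.58.1. The methods were tested on simulated counts with a smaller spread between replicates than these data have. That test does not show how they perform at the spread seen here. Samples were grouped by their titles. The labels do not say whether the libraries came from separate matings, so p-values measure only the spread between these libraries.

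The genes and the lists were chosen with earlier results of these data known, and the lists were written from general knowledge. Beside the 10 genes, the text names those 4 in every list whose mean FPKM was highest, those that DESeq2 called with transcript lengths, and the 3 closest in pattern to Atf4. Coordinates and overlaps come from RefSeq on GRCm38.p6, the assembly behind mm10. The counting is not stated to use strand, so reads in shared spans cannot be told apart.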

Additional observations from a re-analysis of the deposited data

How the results depend on the processing

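The number of the 10 genes with an unadjusted p under 0.05 was 2 by edgeR and changed with the setting. It was 3 by DESeq2 with transcript lengths (Eif2ak4 added) and 2 in its other settings and with at least 10 counts in every library. It was 1 with limma on log2(FPKM + 1) or log2(FPKM + 0.1), with DESeq2's size factors and with library totals (Ddit3 in each), 1 without the filter on low counts (Ppp1r15a) and 0 with the replicate block. Over all tested genes, such a p was found for 2013 of 13549 by edgeR and 2818 of 18208 by DESeq2 with transcript lengths. In the other DESeq2 settings it was found for 2680 of 13549 and 2815 of 18208. With limma these were 1784 and 1626 of 10625, with DESeq2's size factors 1978 and with library totals 1629 of 13549. Without the filter they were 2881 of 18208, with at least 10 counts in every library 2078 of 10898, and with the block 1797 of 13549. With each library left out in turn, which leaves 1 library in a group, the median log2FC of the 10 genes lay between -0.65 and -0.12. Over the 14 alternatives, 131 of 137 values of log2FC kept their direction and their side of the threshold, 2 passed it (Eif2ak4 and Ppp1r15a without DMSO replicate 2) and 4 turned. With each library left out, Eif2ak2 lay between -7.07 and 7.51 (fits to libraries at 0, and no bound), Trib3 between -0.023 and 0.29, and Asns between -2.61 and 0.34. The cause was not tested.

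Over all genes, edgeR called 0, DESeq2 512 to 566 in its 3 settings, edgeR without the filter 644, with the block 44, without DMSO replicate 2 4172, and without treated replicates 1 and 2 5 and 10. Library totals moved the median log2FC of all tested genes from 0.04 to 0.17, limma on log2(FPKM + 0.1) to 0.16. The replicate numbers pair nothing by the labels, the deviations of same-numbered libraries had a correlation of -0.03, and the block called 0 of the 10 genes. With 2 libraries a group, the 95% interval of the log2FC was 1.61 to 11.1 wide for the 10 genes. Medians of the lists without DMSO replicate 1 were chosen after the values were seen.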
